A study of Mus musculus with 4 samples.

Results

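Genes of blood clotting and of the plasminogen system were described in mouse sciatic nerve lacking the kinase LKB1 (gene Stk11) in Schwann cells. The 9 members were F5, F10 and F13a1 (clotting factors), F3 and F2r (the initiator of clotting and the thrombin receptor), Tfpi and Thbd (brakes on clotting), and Plat and Plau (plasminogen activators). They were chosen by gene symbol, with the earlier finding of a higher F5 signal in LKB1-SCKO nerves already known. Their differences between genotypes are therefore given as a description, without a p-value of their own. The platform annotation gave these 9 genes 15 of the 45281 probes on the array, out of 19057 named genes in all, and the plot of all their probes shows every value.

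Each of 4 Illumina arrays carried RNA pooled from 3 sciatic nerves, each nerve from a different mouse. There were 2 pools of LKB1-SCKO nerves and 2 control pools, 6 mice per genotype, at postnatal day 60 on a mixed FVB/C57BL/6 background. Control mice carried the floxed LKB1 gene without Cre recombinase, so the floxed gene was shared by both genotypes. The sample titles of the control pools, and not those of the LKB1-SCKO pools, hold the word mixed, which the titles do not explain. The promoter driving Cre is not given in the sources used here, and cells of the nerve other than Schwann cells were also in the RNA. In such bulk RNA, more cells of a type and more RNA per cell cannot be told apart. Stk11, the targeted gene, stood at 9.70 and 9.83 in the control pools, against 8.93 and 9.01 in the LKB1-SCKO pools. The difference was -0.80 on the log2 scale (SE 0.133), with no way to tell here whether the probe matches the deleted exons.

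Clotting is a cascade of proteases. Tissue factor (F3) starts it on cell surfaces, factor X (F10) with its cofactor factor V (F5) turns prothrombin into thrombin, thrombin cuts fibrinogen into fibrin, and factor XIII (F13a1) cross-links the fibrin. The plasminogen activators Plat and Plau make plasmin, which dissolves fibrin, and in injured peripheral nerve fibrin and its clearance are known to affect Schwann cells and remyelination. Most circulating factors come from the liver, whereas F13a1 is also made by macrophages and megakaryocytes, and Thbd and Tfpi are typical of endothelium.

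The 250 bases before the transcription start of 3 members are shown, F5 because it held the main difference and F3 and F2r because their windows contained a motif of the stress-responsive AP-1 factors, TGANTCA, printed in capitals. The sequences are from RefSeq on GRCm38.p6, 5′ to 3′ on each gene's strand, where 6 of the 9 members had an entry. The F5 window is chr1:164151585-164151834 (plus strand), the F3 window chr3:121723287-121723536 (plus strand) and the F2r window chr13:95618467-95618716 (minus strand).
F5: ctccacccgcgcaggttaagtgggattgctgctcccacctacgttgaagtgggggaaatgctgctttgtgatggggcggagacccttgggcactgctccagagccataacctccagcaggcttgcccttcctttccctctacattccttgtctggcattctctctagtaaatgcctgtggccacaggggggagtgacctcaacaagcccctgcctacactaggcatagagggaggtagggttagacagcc
F3: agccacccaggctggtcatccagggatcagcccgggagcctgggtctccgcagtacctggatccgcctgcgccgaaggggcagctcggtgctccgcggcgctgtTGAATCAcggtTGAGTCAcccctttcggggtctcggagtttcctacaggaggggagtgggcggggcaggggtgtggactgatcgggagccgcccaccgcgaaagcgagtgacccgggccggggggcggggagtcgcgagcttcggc
F2r: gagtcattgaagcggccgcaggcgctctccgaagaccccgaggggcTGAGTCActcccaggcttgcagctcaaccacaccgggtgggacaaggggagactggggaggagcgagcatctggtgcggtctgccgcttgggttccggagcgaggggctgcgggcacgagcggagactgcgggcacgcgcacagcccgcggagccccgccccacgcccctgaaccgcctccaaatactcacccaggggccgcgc

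On both strands 8 motifs were searched: TATAAA (the TATA box), CACGTG (the palindromic E-box), CATGTG (a related E-box), TGACGTCA (the cAMP response element), TGANTCA (AP-1), ACAAT (the core of SOX sites), CCAAT (the CCAAT box) and CANNTG (any E-box). A palindromic or related E-box is also counted as any E-box. The F5 window held none of the 8. By comparison, CANNTG, the general E-box, was in 66.2% of all 32851 windows of that length, CCAAT in 33.8% and TGANTCA in 6.75%. The F3 window held TGANTCA at positions -146 and -135 from the start and the F2r window at -204. Base composition also differed, with 57.2% G and C and 4 CG dinucleotides in the F5 window against 70.0% and 24 in that of F3 and 70.8% and 24 in that of F2r. These matches describe letters only, and no binding or methylation was measured.

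Factor V was the member that differed most. Its brighter probe, ILMN_1248713, had non-normalized signals of 135 and 145 in the control pools, against 365 and 425 in the LKB1-SCKO pools. Its second probe, ILMN_1222970, had 146 and 147 in the control pools, against 275 and 248 in the LKB1-SCKO pools. Both probes were thus high in both LKB1-SCKO pools and low in both control pools, with no overlap. The detection p-value, which rates a probe against the negative controls of its array, was 0.682 and 0.485 in the controls for the brighter probe and 0.268 and 0.412 for the second, and it was 0 in both LKB1-SCKO pools for each. Control nerves therefore had no F5 signal above background (detection p under 0.05) at either probe.

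**Figure D1:**
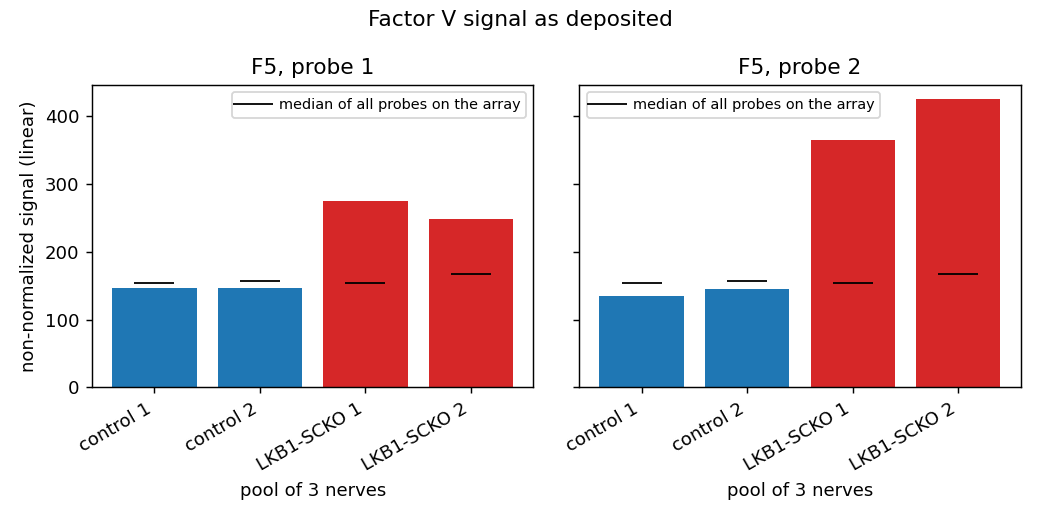
Non-normalized F5 signal (linear scale) of each pool of 3 nerves at its 2 probes, with a horizontal mark at the median of all probes on that array. Bars of both control pools lie below the array median and bars of both LKB1-SCKO pools above it.

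After background correction and quantile normalization, the brighter probe stood at 4.59 and 4.70 on the log2 scale in the control pools and at 7.997 and 8.154 in the LKB1-SCKO pools. No control array detected it, so its difference is stated as a bound, at least 7.40-fold higher in LKB1-SCKO. The bound was taken against the lowest detected signal of each control array. This bound, like that of the second probe, holds for this processing alone: the fitted difference of the same probe was 2.36 with a larger offset and 1.48 without background correction (log2 scale). The second probe stood at 4.83 and 4.74 in the control pools, against 7.32 and 6.78 in the LKB1-SCKO pools, a bound of at least 3.63-fold, beside fitted differences of 1.44 and 0.81 in those settings. The fitted log2 differences in the fit over probes were 3.43 (SE 0.147) and 2.26 (SE 0.212) respectively. Their control values lay at background, and they depend on how background is treated, which the SE does not cover. Which of the LKB1-SCKO pools was higher differed between the probes, pool 2 at the brighter probe and pool 1 at the other.

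F10 and F3 did not pass the detection filter, and F5 passed it through the LKB1-SCKO pools alone. F5 was the only 1 of the 7 members that passed it that was among the genes called different (limma, Benjamini-Hochberg over all 10858 genes at 0.05), beside 2.46% of all genes called higher and 1.34% called lower in LKB1-SCKO. Nothing is read from that count, because F5 was chosen with this comparison known. Among probes, 2 of the 8 member probes that passed the filter were called, both of F5, where 2.52% of all 19732 kept probes were. For the same reason nothing is read from this probe count. The second F5 probe missed the threshold without control 2 (log2 difference 2.22) and with the authors' processed values (4.59). With those processed values, floored at 1, the brighter probe stood at -4.72 and 1.11 (linear scale, before the floor) in the control pools, against 226 and 254 in the LKB1-SCKO pools, and its fitted difference was 7.83. The second probe stood at 6.75 and 3.13 in the control pools, against 136 and 89.8 in the LKB1-SCKO pools. The floor left the second probe with the higher mean log2 value over the 4 pools, so that by the brightest-probe rule it stood for the gene there. The size of the F5 difference thus differed with how values near background were treated, from 1.48 to 7.83 at ILMN_1248713 and from 0.81 to 4.59 at ILMN_1222970.

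**Figure D2:**
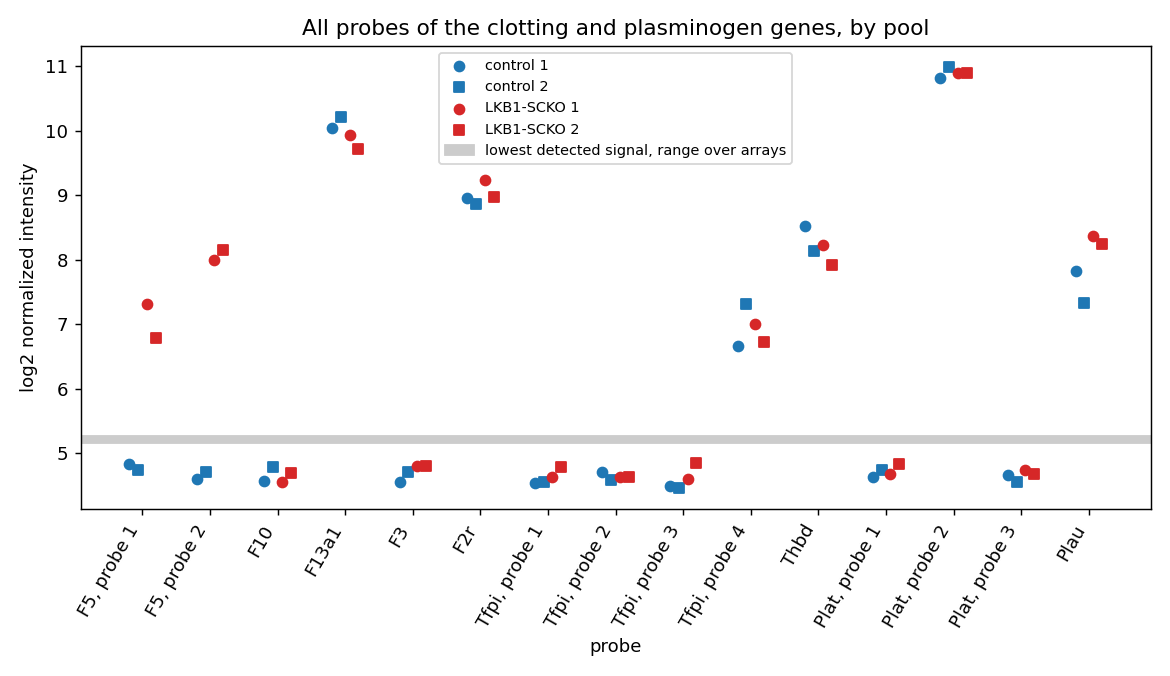
Log2 normalized intensity of all 15 member probes in each of the 4 pools, with a grey band for the lowest detected signal on the arrays (5.16 to 5.27). The F5 probes cross the band between genotypes, and the 7 probes of F10, F3, Tfpi and Plat that lie below it do so in all pools.

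The profiles most like that of F5, by Euclidean distance of log2 values over the 4 pools after subtracting the control mean, were those of Cpne4 (0.307), 4930426D05Rik (0.367), Prkg2 (0.370), Gm14685 (0.517) and Gpr137c (0.532). Cpne4 encodes a copine, a calcium-dependent membrane-binding protein, and Prkg2 a cGMP-dependent kinase. Of these 5 genes, 4930426D05Rik and Gm14685 were, like F5, undetected in both control pools and were at least 6.38-fold and 7.55-fold higher in LKB1-SCKO. These bounds, like those of F5, hold for the main processing alone. With 4 pools, likeness between such profiles reflects little more than the size of the difference.

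The partners of factor V in the prothrombin-converting complex were not measurable. F10, the protease of that complex, had a non-normalized signal of 133 and 148 in the control pools, against 135 and 154 in the LKB1-SCKO pools, detected in none (detection p from 0.351 to 0.772). Prothrombin (F2) was detected on 1 of 4 arrays. Fibrinogen chains Fga and Fgb were undetected on every array, and Fgg, the third chain, stood at 5.50 and 5.51 in control pools and at 5.46 and 4.58 in LKB1-SCKO pools, close to background (log2 fold change -0.48, SE 0.298, limma adjusted p = 0.401). Fgg was detected in both control pools and in LKB1-SCKO 1. For F10, F2, Fga and Fgb no level can be stated beyond the detection limit of the array.

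The machinery that carries factor V out of the cell was measured in all pools. Lman1 and Mcfd2, the cargo receptor pair that moves factors V and VIII from the endoplasmic reticulum, had log2 fold changes of -0.14 (SE 0.127) and 0.21 (SE 0.145), with limma adjusted p of 0.560 and 0.447. F8, the factor VIII gene, a close relative of F5, stood at 5.36 and 5.82 in the control pools, against 5.93 and 5.69 in the LKB1-SCKO pools, which overlapped (log2 fold change 0.22, SE 0.201, adjusted p = 0.566, limma). Its other 3 probes were not above background on both arrays of a genotype.

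F13a1, which encodes the catalytic subunit of factor XIII, was measured in every pool, at 10.04 and 10.22 in the control pools, against 9.93 and 9.71 in the LKB1-SCKO pools. Both LKB1-SCKO pools lay below both control pools, by little (log2 fold change -0.31, SE 0.151, 95% interval -0.69 to 0.07), and the gene was not called. Without 1 pool it lay between -0.42 and -0.20. Markers of macrophages, which make F13a1, differed in direction. Of the 7 measured, Cx3cr1 and Mpeg1 rose (log2 fold changes 1.87 and 1.28, limma adjusted p = 0.0287 and 0.0402). Adgre1 (0.67), Lyve1 (0.35) and Csf1r (0.24) stood above 0 and Cd163 (-1.25) and Mrc1 (-0.48) below, none of these called. Cd163 stood at 8.32 and 9.49 in the control pools, against 8.21 and 7.10 in the LKB1-SCKO pools. The part of cell number in the F13a1 values was not tested.

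Tissue factor, the initiator, was not detected. The F3 probe had signals of 132 and 145 in the control pools, against 147 and 159 in the LKB1-SCKO pools, with detection p from 0.311 to 0.743. The AP-1 motifs in its printed window thus stand before a gene without measurable signal in either genotype.

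F2r, the thrombin receptor PAR1, through which thrombin acts on cells, was measured at 8.96 and 8.87 in the control pools, against 9.24 and 8.97 in the LKB1-SCKO pools. The LKB1-SCKO pools lay above the control pools, LKB1-SCKO 2 only just. The log2 fold change of 0.19 (SE 0.151, 95% interval -0.19 to 0.57) was not called, and it was 0.055 without LKB1-SCKO 1 and 0.32 without LKB1-SCKO 2. F2rl2 and F2rl3, which encode related protease-activated receptors, were undetected in all pools, and F2rl1 was not analysed here.

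Of the brakes on clotting, Thbd encodes thrombomodulin, which turns thrombin towards activating protein C. It stood at 8.52 and 8.14 in the control pools, against 8.23 and 7.91 in the LKB1-SCKO pools, which overlapped. The log2 fold change was -0.26 (SE 0.197, 95% interval -0.75 to 0.24), with -0.065 without control 1, -0.45 without control 2, -0.42 without LKB1-SCKO 1 and -0.096 without LKB1-SCKO 2. Tfpi, the inhibitor of the tissue factor complex, had 1 of its 4 probes above background, at 6.67 and 7.31 in the control pools, against 7.004 and 6.72 in the LKB1-SCKO pools. Here too the genotypes overlapped, with a log2 fold change of -0.12 (SE 0.249, 95% interval -0.75 to 0.50), which turned to 0.20 without control 2 and to 0.02 without LKB1-SCKO 2. The other 3 Tfpi probes lay between 4.45 and 4.85 in every pool and add no information. Markers of endothelium, the usual source of both transcripts, had a mean log2 value of 9.57 and 9.43 in the control pools, against 9.37 and 9.54 in the LKB1-SCKO pools over 7 of 8 genes, and 0 of the 7 were called. Their summed normalized intensity (linear scale) did not overlap, at 12096 and 10564 in the control pools, against 8466 and 10446 in the LKB1-SCKO pools. Of the 7, 4 had a log2 fold change above 0. Cdh5, Emcn and Egfl7 were lower in both LKB1-SCKO pools, and Tie1 was higher in both. The part of endothelial cells in the Thbd and Tfpi values was not tested.

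Of the plasminogen activators, Plat, the tissue type, varied little between pools, at 10.83 and 10.99 in the control pools, against 10.89 and 10.90 in the LKB1-SCKO pools. Its LKB1-SCKO values lay between those of the control pools (log2 fold change -0.01, SE 0.134, 95% interval -0.35 to 0.33), and the sign turned without control 2 (0.07). The 2 other Plat probes were undetected in all pools.

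Plau, urokinase-type plasminogen activator, which works at cell surfaces, had non-normalized signals of 354 and 297 in the control pools, against 433 and 444 in the LKB1-SCKO pools. On the log2 scale it stood at 7.83 and 7.33 in the control pools, against 8.37 and 8.24 in the LKB1-SCKO pools, with no overlap. The log2 fold change was 0.73 (SE 0.201, 95% interval 0.22 to 1.24), a ratio of 1.66, and the gene was not called once all genes were considered. Its value lay between 0.47 and 0.98 in other settings, lowest without background correction, 0.48 without control 2 and highest without control 1. Whether Plau and Plat differ in their response to genotype was not tested. The urokinase receptor gene Plaur was detected on 1 of 4 arrays, and plasminogen itself (Plg) on at most 1 array at any of its probes.

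Of the 7 measured members, 3 lay higher in both LKB1-SCKO pools (F5, F2r and Plau) and 1 lower in both (F13a1), while Tfpi, Thbd and Plat overlapped. Over all genes tested, 29.3% lay higher in both LKB1-SCKO pools and 25.8% lower in both. The median log2 fold change of the 7 members was -0.01, beside 0.01 for all genes.

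**Figure D3:**
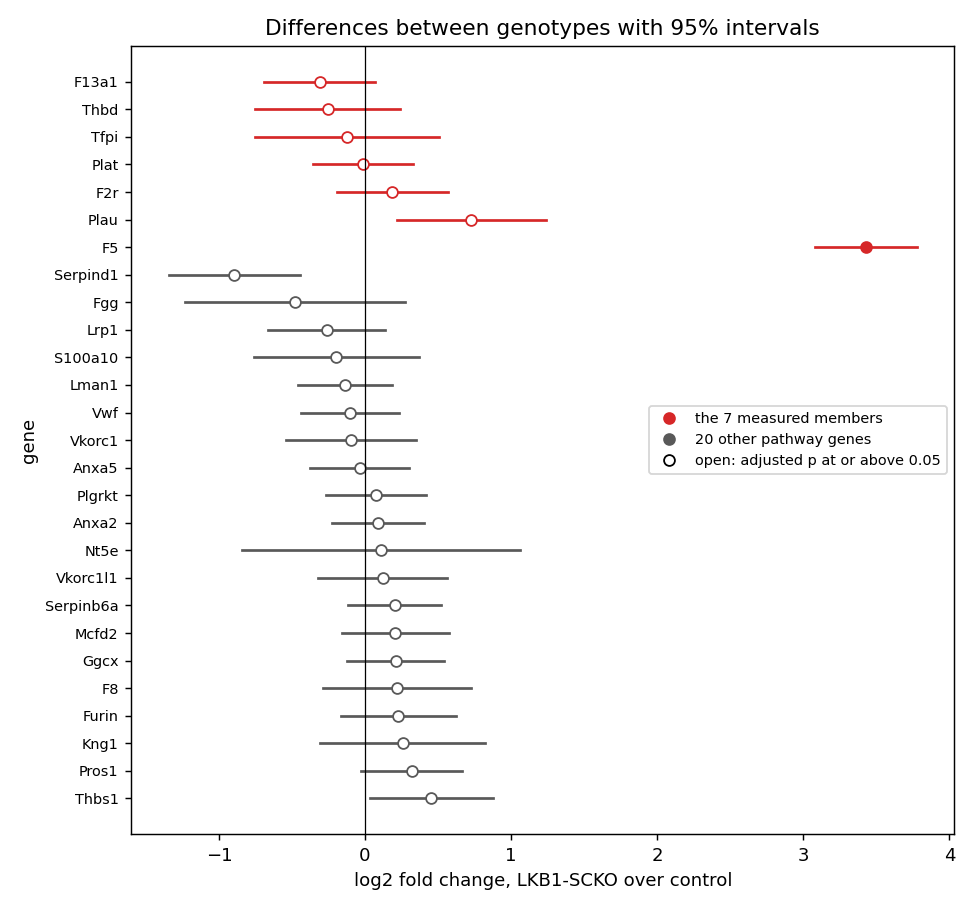
Log2 fold change (LKB1-SCKO over control) with its 95% interval (limma, not adjusted for the number of genes) for the 7 measured members and 20 other pathway genes. The F5 point is the fitted value of 3.43, which is not a bound, and its interval does not cover the treatment of background. All other genes lie between -0.90 and 0.73.

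Other genes of these pathways were taken from a list of 49 clotting, anticoagulant and fibrinolysis genes, of which 43 had a probe and 20 were measured above background. None of the 20 was called in either direction (limma, adjusted over all 10858 genes), beside 2.46% of all genes called higher and 1.34% called lower. Nothing is read from so small a count. Serpind1 and Thbs1, 2 of the 20, had an unadjusted limma p under 0.05, where 22.4% of all genes tested did. Neither gene is set apart from other genes by an unadjusted p under 0.05. The median log2 fold change of the 20 was 0.10, with 12 above 0 and 8 below. Over all genes tested it was 0.01, with 5602 above 0 and 5256 below. Of the 23 genes with a probe that fell below the detection filter, 16 were undetected on all 4 arrays.

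Among clotting factors, 4 of 13 listed genes were measured and none was called. Vwf, the von Willebrand factor gene of endothelium, was measured in every pool and was slightly lower in both LKB1-SCKO pools (log2 fold change -0.10, SE 0.132, 95% interval -0.43 to 0.23, adjusted p = 0.691, limma). Kng1, which encodes kininogen, the precursor of bradykinin, stood at 0.26 on the log2 fold change scale (SE 0.223, adjusted p = 0.539 in limma). Its sign turned without LKB1-SCKO 1 (-0.01). The other Kng1 probe above background, a dimmer one, had a log2 difference of 0.05 (limma, adjusted p = 0.912 over all probes).

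Among the other brakes on clotting, 4 of 10 genes were measured. Pros1, which encodes protein S, a cofactor of protein C that also serves as a ligand of TAM receptors, stood at 10.81 and 10.94 in the control pools, against 11.26 and 11.13 in the LKB1-SCKO pools (log2 fold change 0.32, SE 0.136, limma adjusted p = 0.249). Anxa5, annexin A5, which shields anionic phospholipid, had a log2 fold change of -0.04 (adjusted p = 0.899, limma). Serpind1, which encodes heparin cofactor II, a thrombin inhibitor, was named after its values were seen. It stood at 11.32 and 11.62 in the control pools, against 10.71 and 10.43 in the LKB1-SCKO pools. These did not overlap, and the log2 fold change was -0.90 (SE 0.177, adjusted p = 0.0639 in limma). It passed the threshold without background correction (adjusted p = 0.0276), with the larger offset (adjusted p = 0.0340) and with control 1 paired to LKB1-SCKO 2 (adjusted p = 0.0499). It did not pass in the other 11 alternatives.

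Among plasminogen receptors and cofactors, 5 of 8 genes were measured. Anxa2 and Plgrkt, cell surface receptors that bring plasminogen and its activator together, had log2 fold changes of 0.09 and 0.08 (limma adjusted p = 0.710 and 0.782). Under median scaling, which moved the median of all genes from 0.01 to -0.070, they stood at -0.00075 and -0.026. The other Anxa2 probe above background, a dimmer one, had a log2 difference of 0.52 (limma, adjusted p = 0.173 over all probes), and the mean of both probes one of 0.30. Thbs1, thrombospondin 1, named after its values were seen, was detected in 1 of 2 control pools and had a log2 fold change of 0.45 (SE 0.166, adjusted p = 0.201 in limma). Of the inhibitors of fibrinolysis only Serpinb6a, a protease inhibitor with close relatives in the mouse genome, was measured (log2 fold change 0.20, limma adjusted p = 0.397).

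All 6 genes of the vitamin K cycle and of factor secretion were measured, and none was called. Vkorc1, the vitamin K reductase that warfarin blocks, had a log2 fold change of -0.10 (limma adjusted p = 0.790), which turned to 0.11 without control 2. Its other probes above background were lower in both LKB1-SCKO pools, with log2 differences of -0.31 and -0.37 (limma, adjusted p = 0.356 and 0.381 over all probes). The mean over its probes above background gave -0.26. Furin, a protease that matures secreted proteins, stood at 0.23 on the log2 fold change scale (SE 0.155, adjusted p = 0.437 in limma), with 0.10 without control 2 and 0.35 without control 1. The other Furin probe above background, a dimmer one, had a log2 difference of 0.39 (limma, adjusted p = 0.281 over all probes).

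**Figure D4:**
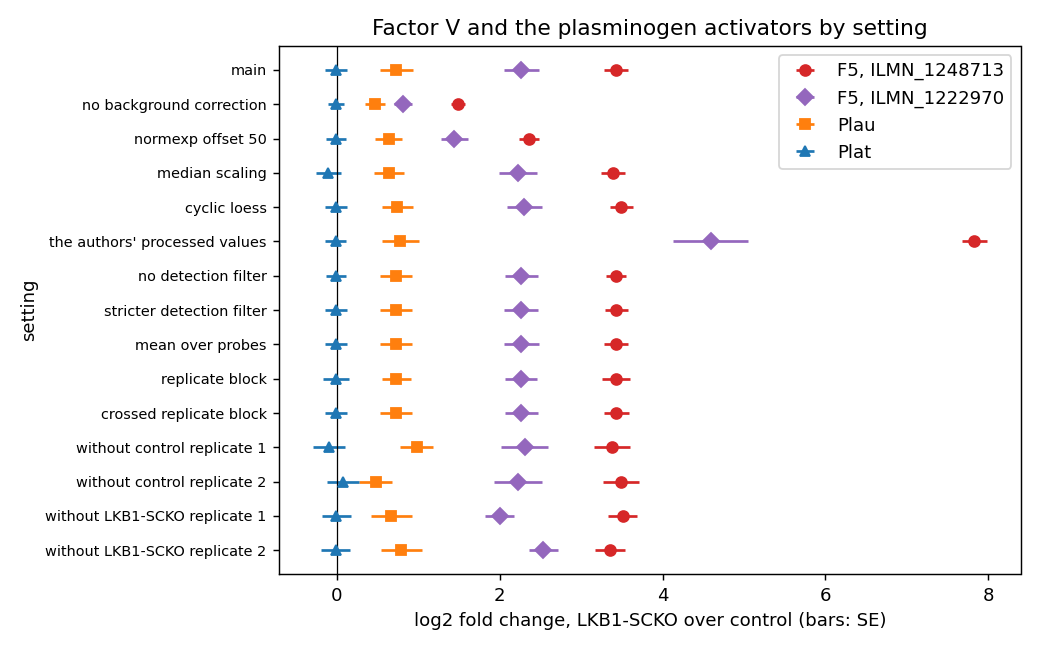
Log2 fold change (LKB1-SCKO over control) of the 2 F5 probes, Plau and Plat under the main setting and 14 alternatives, with bars for the SE. F5 ranges from 1.48 to 7.83 at ILMN_1248713 and from 0.81 to 4.59 at ILMN_1222970, Plau from 0.47 to 0.98, and Plat from -0.10 to 0.07.

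Markers of the cell types in the nerve are given beside these values. Of the Schwann cell markers, Mbp, Pmp22, Mag, S100b and Sox10 were measured in all pools, and 0 of 5 were called. Beside F5, markers of the liver, the main source of circulating factor V, were mostly at background: Alb, Apoa1, Apoh and Ahsg were undetected on all arrays, Serpina1a was detected on 2 and Ttr on 3. Ttr, near background, stood at 4.99 and 5.58 in the control pools, against 5.95 and 5.70 in the LKB1-SCKO pools (log2 fold change 0.54, not called). Platelets also carry factor V. Of the platelet list, 4 of 6 genes were measured, with a summed normalized intensity (linear scale) of 959 and 1136 in the control pools, against 627 and 841 in the LKB1-SCKO pools. Pf4 was the brightest gene in that sum. The mean log2 value of the 4 genes overlapped, at 6.98 and 6.87 in the control pools, against 6.60 and 7.37 in the LKB1-SCKO pools. Their median log2 fold change was 0.028. The 4 measured genes differed in sign, and none was called. Pf4 (log2 fold change -0.77) and Itga2b (-0.64) were lower in both LKB1-SCKO pools. Gp9 (0.70), near background, was higher in both and was detected in no control pool. Ppbp (0.97, SE 0.705) overlapped, at 5.91 and 4.87 in the control pools, against 5.36 and 7.36 in the LKB1-SCKO pools. Gp6 was undetected on every array.

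Values of other cell lists are given as summed normalized intensities. Red blood cell markers summed to 28192 and 26265 in the control pools, against 55323 and 97554 in the LKB1-SCKO pools, with 4 of 4 measured genes above 0 and none called. Mast cell markers summed to 1874 and 1569 in the control pools, against 2266 and 2151 in the LKB1-SCKO pools, with 5 of 5 above 0 and none called. Macrophage markers summed to 3078 and 5117 in the control pools, against 5306 and 4516 in the LKB1-SCKO pools, which overlapped. Skeletal muscle markers were low in LKB1-SCKO 1 (12104, against 36267 to 46606 in the other pools), where F5 stood at 7.997. Adipocyte markers summed to 18892 and 9884 in the control pools, against 22488 and 16380 in the LKB1-SCKO pools, with 4 of 4 above 0. Fibroblast markers summed to 62276 and 76759 in the control pools, against 64264 and 51887 in the LKB1-SCKO pools, with 1 of 6 above 0. For mural cells and perineurium the median log2 fold change was 0.0098 and 0.017, and in none of these 4 lists was a gene called. The part of these cells in the F5 and Plau values was not tested.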

How the data were processed

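The deposited table gives, per the file headers, non-normalized signal intensity and a detection p-value per probe; its 45281 probes had medians of 153 to 167, and 19588 to 20627 were detected per array. The authors' processed intensity values share 1 distribution on all arrays; how is not stated, beyond GenomeStudio (2010), per the submitters' processing notes. Names came from the platform annotation, updated by gene ID.

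Signals were background-corrected (normexp, negative controls inferred from detection p-values, offset 16), quantile normalized and put on the log2 scale in limma 3.58.1 (R 4.3.3). Probes with detection p under 0.05 on both arrays of a genotype were kept (19732), and the brightest stood for its gene (10858 genes). The genotype difference was fitted with lmFit and eBayes, two-sided, Benjamini-Hochberg over all genes. The fit was tested on simulated data. Only 2 pools per genotype limit the precision, p-values cover the spread between pools, and no slide is recorded.

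The members and lists were chosen with earlier results of these data known. Named were all members, Stk11, called genes and the 2 brightest genes of each pathway list, and the 5 genes nearest to F5; F8, Fgg, Lman1, Mcfd2, Serpind1, Thbs1 and genes named as undetected were named after their values were seen. Alternatives changed the background, scaling, filter, probe rule, source table and pools.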

Additional observations from a re-analysis of the deposited data

How the results depend on the processing

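The F5 difference lay between 1.48 and 7.83 at its brighter probe and between 0.81 and 4.59 at the second over the 14 alternatives. Nothing is read from its direction, since F5 was chosen for this difference on the same arrays. The count of called genes, 412 in the main setting, was 635 without background correction (263 lower), 157 with the authors' processed values (115 higher, 42 lower) and 172 with the replicate number as a block (132 higher, 40 lower). With an offset of 50, 241 were lower. Leaving out 1 pool gave 112 to 483 called genes, 93 to 261 of them higher and 19 to 222 lower. Pools with the same replicate number did not deviate together (r = -0.17 across 10858 genes), and the crossed pairing, chosen after seeing the data, called 349 genes. Member probes called were 1 with the authors' processed values and 1 to 2 without 1 pool. Pathway genes called lower were 1, Serpind1, without background correction, with an offset of 50 and with the crossed pairing. Signs turned for Anxa2 (-0.00075) and Plgrkt (-0.026) under median scaling. Across the fits without 1 pool, signs turned without control 2 for Tfpi (-0.45 to 0.20 over the 4 fits), Plat (-0.096 to 0.070), Anxa5 (-0.099 to 0.026) and Vkorc1 (-0.30 to 0.11), without LKB1-SCKO 1 for Kng1 (-0.014 to 0.53) and Plgrkt (-0.013 to 0.16), and without LKB1-SCKO 2 for Tfpi and Anxa5. Leave-one-out fits kept the main normalization and genes, and the lone pool was assumed to vary like the other genotype. Probes near background limit F5 in controls, F3 and F10. The cause of these changes was not tested.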
